A study of Mus musculus with 6 samples.

Results

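Motile cilia genes were followed in bulk RNA-seq of mouse hypothalamus. The genes were chosen by symbol from the deposited count table of 18228 genes: the families Cfap, Dnah, Dnai (with the older spelling Dnaic), Rsph and Tekt, together with Foxj1, Ccdc153, Tmem212 and Ak7. The symbol rule took 67 genes, and 64 of them had 10 or more counts in at least 3 of the 6 libraries. The other 3 were Cfap97d1 with 0 to 1 counts per library, Tekt3 with 1 to 5 and Rsph6a with 2 to 9. Just inside the limit stood Cfap53 with 5 to 18 counts, Cfap58 with 7 to 19 and Cfap299 with 8 to 16. All 64 genes were also among the 14702 genes tested for age.

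One group, called aged here, was 3 mice 22 months old, and the other, called young, was 3 mice 12 weeks old; each library came from 1 mouse. Mice of both ages had been through a behavioural experiment, and were anaesthetised with sodium pentobarbital and killed by dislocation; the labels name no strain, sex, genotype or further treatment. The study asked which hypothalamic transcripts predict cognitive decline with age. Counted reads per library ran from 17208291 to 18884403. The Y-linked gene Ddx3y averaged 73.1 ± 0.915 CPM (SD) over the aged mice but 0.590 ± 0.132 CPM over the young mice, so age and sex cannot be told apart in any comparison given here.

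Motile cilia are driven by an axoneme, a ring of doublet microtubules around a central pair. Dynein arms on the doublets make them slide, radial spokes and the central apparatus control the beat, and proteins inside the doublets stabilise the wall. In the brain these cilia stand on ependymal cells, which line the ventricles and move cerebrospinal fluid; the hypothalamus borders the third ventricle. A dissected hypothalamus can hold a strip of this lining within a large mass of neurons and glia. In bulk tissue, fewer ependymal cells and less RNA per ependymal cell cannot be told apart.

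As a sum, the set did not differ in level between the ages by more than the spread between mice. Levels are given as CPM, the counts relative to library totals after TMM scaling, and levels of different genes are compared only as FPKM, the deposited value per length. The summed level of the 64 genes was 853, 890 and 813 CPM in aged replicates 1, 2 and 3, and 822, 822 and 906 CPM in young replicates 1, 2 and 3. The groups overlapped, with a difference of 0.248% between their means. These were 852 ± 38.1 CPM for the aged mice and 850.0 ± 48.8 CPM for the young mice (± SD, n = 3 per age). Genes with many counts weigh most in this sum, and Dnah1 alone gave 73.2 to 94.8 CPM of it per library. The median log2 fold change given below counts each gene once. No gene of the 64 passed edgeR's quasi-likelihood test at an adjusted p under 0.05, where 6.86% of all tested genes passed, 3.22% higher and 3.64% lower in aged libraries. Other tools gave 1 call with DESeq2 (Dnah6), 0 with limma-voom and 5 with limma-voom and sample weights (Cfap100, Cfap161, Dnah6, Dnaic1 and Rsph4a). An unadjusted p under 0.05 was found for 7 of the 64 (10.9%), against 26.2% of all tested genes. The 64 genes also had a lower median FPKM than all tested genes (1.80 against 7.22). Their median SD within an age was larger (0.196 against 0.114 on the log2 scale). The part of these 2 differences in the lower shares was not tested.

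The direction of the fitted differences was mixed. The log2 fold change of aged over young was positive for 35 of the 64 genes and negative for 29, with a median of 0.02, from -0.53 (Dnah6) to 0.59 (Cfap161). Over all tested genes the median was -0.0035. The 3 aged libraries lay above the 3 young ones for 6 genes (9.38%, against 15.5% of all tested genes) and below them for 4 (6.25%, against 16.2%); either way, 31.7% of all tested genes had groups without overlap. A 95% interval of the log2 fold change lay wholly within a 2-fold change either way for 59 of the 64 genes, and within a 1.5-fold change for 38. Of all 14702 tested genes, 13408 had an interval within a 2-fold and 11102 within a 1.5-fold change. Among the 64 genes the interval reached past 2-fold for Cfap53, Cfap58, Cfap77, Cfap157 and Dnah14, which had at most 42 counts in any library.

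**Figure D1:**
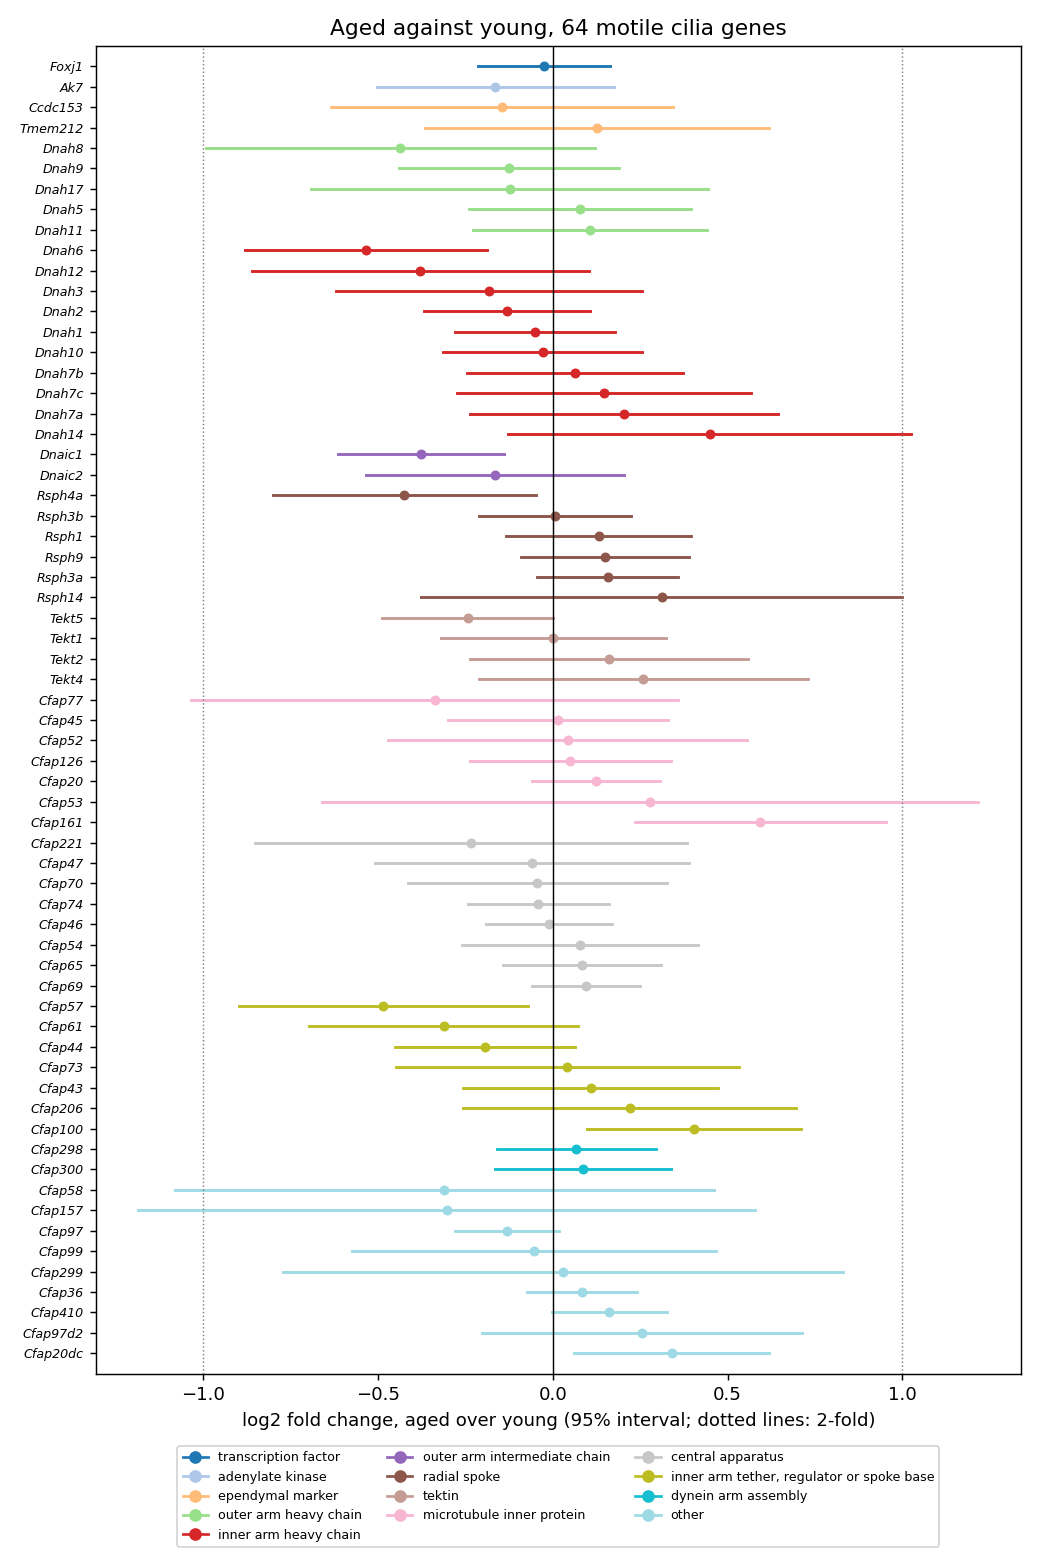
Log2 fold change of aged over young (points) with its 95% interval (lines) for the 64 genes, grouped and coloured by role; dotted lines mark a 2-fold change. Points lie on both sides of 0, from -0.53 (Dnah6) to 0.59 (Cfap161), and 5 intervals cross a dotted line.

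The genes listed singly mark the ependymal cell or its ciliation. Foxj1 is the transcription factor that switches on the motile cilium programme. It stood at 23.5, 20.8 and 20.5 CPM in aged replicates 1 to 3 and at 22.0, 21.2 and 22.9 CPM in young replicates 1 to 3. The values interleave, and the log2 fold change was -0.03 with a 95% interval of -0.21 to 0.16 (edgeR adjusted p = 0.883).

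Ccdc153, a coiled-coil gene used as an ependymal marker, varied more. It gave 7.12, 9.71 and 5.02 CPM in aged mice, against 8.97, 6.78 and 8.51 CPM in young mice. The highest and the lowest library were both aged, 1.93 times apart (edgeR adjusted p = 0.718). Tmem212, a membrane protein gene and another ependymal marker, gave 5.32, 6.59 and 4.10 CPM in aged mice, against 4.16, 4.25 and 6.29 CPM in young mice (edgeR adjusted p = 0.760). Ak7, an adenylate kinase of the axoneme, gave 11.4, 13.5 and 10.2 CPM in aged mice, against 12.2, 11.3 and 15.9 CPM in young mice (edgeR adjusted p = 0.536). For these 3 markers aged replicate 3 was the lowest of all 6 libraries.

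**Figure D2:**
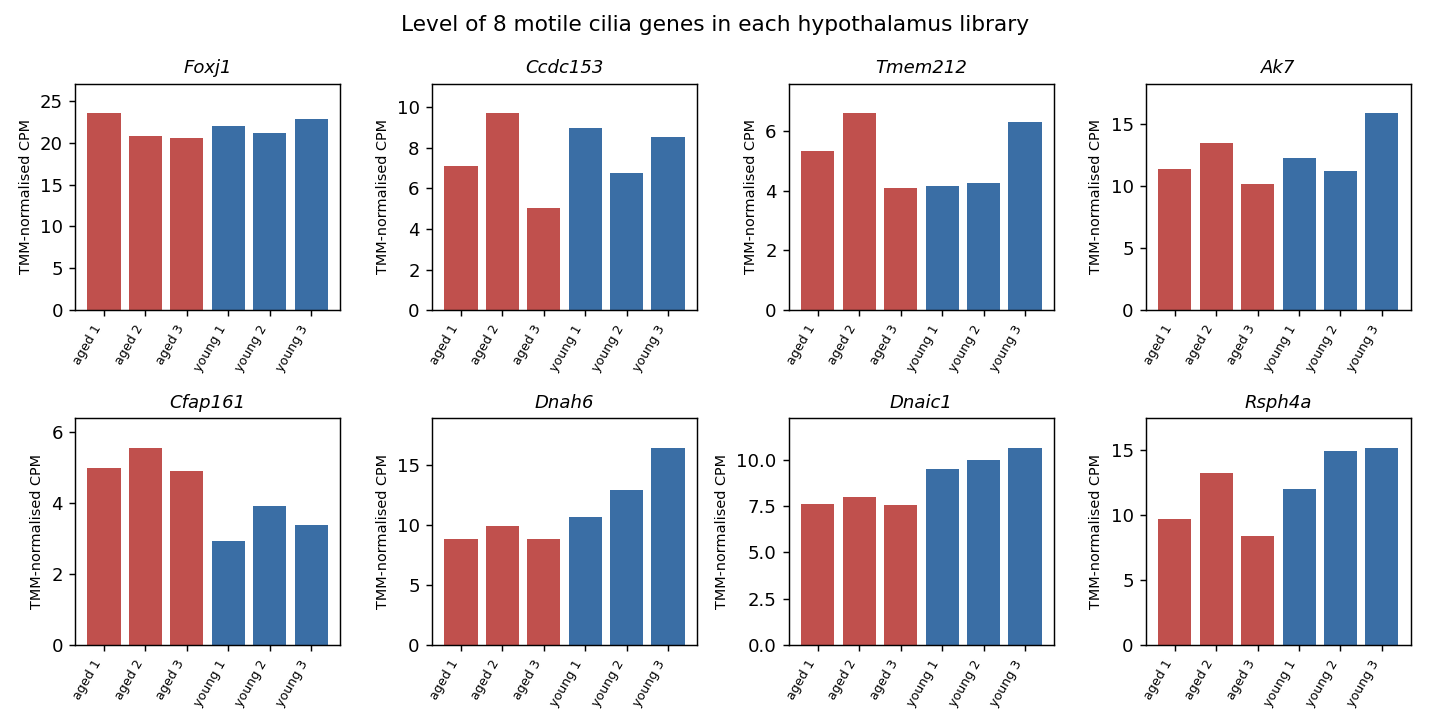
Level in TMM-normalised CPM of 8 genes in each library (red, aged; blue, young; 1 bar per mouse). Bars of the 2 ages overlap for Foxj1, Ccdc153, Tmem212, Ak7 and Rsph4a, and stand apart for Cfap161 (aged above), Dnah6 and Dnaic1 (young above).

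Outer dynein arms provide much of the beat's power. Their heavy chains Dnah5, Dnah8, Dnah9, Dnah11 and Dnah17 had log2 fold changes from -0.44 (Dnah8) to 0.11 (Dnah11), 2 positive and 3 negative, and edgeR adjusted p-values from 0.298 to 0.802. Dnah9, the outer arm heavy chain with the highest FPKM (1.02), gave 12.6, 14.5 and 13.4 CPM in aged mice, against 12.6, 13.4 and 18.1 CPM in young mice. Young replicate 3 stood apart there and the other 5 lay close together. Dnah8, known chiefly from sperm, was at 0.168 FPKM.

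The outer arm intermediate chains, which hold the heavy chains together, were both lower in the aged mean. Dnaic1 (now named Dnai1) gave 7.62, 8.0 and 7.56 CPM in aged mice, against 9.49, 9.996 and 10.6 CPM in young mice. The groups did not overlap, and the log2 fold change was -0.38 ± 0.11 SE with a 95% interval of -0.62 to -0.14, short of the threshold (edgeR adjusted p = 0.0626). Enho, a gene with an exon overlapping Dnaic1 on the opposite strand in the GENCODE M21 annotation, had a log2 fold change of -0.23 (edgeR adjusted p = 0.0626), and its part in the value of Dnaic1 was not tested. Dnaic2 gave 8.35, 8.0 and 6.40 CPM in aged mice, against 9.14, 6.72 and 9.68 CPM in young mice, with overlap (edgeR adjusted p = 0.569).

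Inner dynein arms shape the bend of the cilium. Of their 10 heavy chain genes, 4 had a positive and 6 a negative log2 fold change. Dnah1 had the highest FPKM of all axonemal dyneins here, 6.45, and gave 87.8, 84.7 and 73.4 CPM in aged mice, against 86.7, 73.2 and 94.8 CPM in young mice, with overlap (edgeR adjusted p = 0.797).

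Dnah6 had the lowest fold change of the 64 genes. It gave 8.86, 9.92 and 8.89 CPM in aged mice, against 10.7, 12.9 and 16.5 CPM in young mice. Every young library was above every aged one, and the young libraries were spread more widely (SD 2.92 against 0.604 CPM). The log2 fold change of -0.53 ± 0.15 SE did not pass (edgeR adjusted p = 0.0667).

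Dnah12 behaved less evenly: it gave 4.04, 6.80 and 4.73 CPM in aged mice, against 5.33, 7.01 and 7.95 CPM in young mice (edgeR adjusted p = 0.299). Dnah14 went the other way in the mean, with 2.13, 2.02 and 1.85 CPM in aged and 1.05, 1.32 and 2.0 CPM in young libraries, from at most 39 reads per library (edgeR adjusted p = 0.303). The 3 copies Dnah7a, Dnah7b and Dnah7c had log2 fold changes of 0.20, 0.06 and 0.15. Their sequences are close to each other, and how reads matching several genes were counted is not given in the sources used here, so the division of reads among them is uncertain.

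Radial spokes pass signals from the central apparatus to the dynein arms. Of the 6 spoke genes with enough counts, 5 had a positive log2 fold change and Rsph4a, a spoke head protein, a negative one. Rsph4a gave 9.70, 13.2 and 8.37 CPM in aged mice, against 12.0, 14.9 and 15.2 CPM in young mice. Aged replicate 2 lay above young replicate 1, and the log2 fold change was -0.43 ± 0.17 SE (edgeR adjusted p = 0.145).

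Rsph9, also of the spoke head and the spoke gene with the highest FPKM (9.13), gave 24.1, 29.3 and 23.4 CPM in aged mice, against 22.0, 21.8 and 25.5 CPM in young mice (edgeR adjusted p = 0.416). Rsph1, a further spoke head protein, had a log2 fold change of 0.13 (edgeR adjusted p = 0.522). Spoke head genes thus had fitted differences of both signs, none of which passed. Rsph3a and Rsph3b, near-copies of a spoke stalk gene whose reads may have been divided between them, had log2 fold changes of 0.16 and 0.01. Rsph14, with 10 to 25 counts per library, had a log2 fold change of 0.31 with a 95% interval of -0.38 to 1.0.

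Inside the doublets, Cfap161, a protein of the microtubule lumen, had the highest fold change of all 64 genes. It gave 4.99, 5.56 and 4.90 CPM in aged mice, against 2.93, 3.91 and 3.39 CPM in young mice. The lowest aged library was above the highest young one. The log2 fold change was 0.59 ± 0.16 SE with a 95% interval of 0.23 to 0.95, and the edgeR adjusted p was 0.0547; over 18 processing alternatives the adjusted p ran from 0.0247 to 0.148 and passed in 4.

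Cfap20, at the inner junction of the doublet and also known from non-motile cilia, had the highest FPKM of the 64 genes, 29.7. It gave 41.2, 44.8 and 39.6 CPM in aged mice, against 35.5, 38.6 and 41.2 CPM in young mice, with a log2 fold change of 0.12 (edgeR adjusted p = 0.374). Cfap45 and Cfap126, other proteins inside the doublets, had log2 fold changes of 0.01 and 0.05. Tektins are filament proteins of the same wall. Tekt1, an ependymal tektin, had means of 6.39 ± 0.605 CPM in aged mice, against 6.38 ± 0.809 CPM in young mice (± SD over 3 mice per age; edgeR adjusted p = 0.996).

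Tekt5, better known from sperm, had the highest FPKM of the tektins, 11.6, against 3.88 for Tekt1 and 3.64 for Tekt2. It gave 17.2, 20.7 and 18.4 CPM in aged mice, against 25.1, 19.7 and 22.0 CPM in young mice, so aged replicate 2 lay above young replicate 2 (log2 fold change -0.24 ± 0.11 SE; edgeR adjusted p = 0.193). Defining genes of sperm were at or near 0: of 7 listed, 3 were in the table, with 0 to 2 reads in sum per library.

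The central apparatus carries the regulatory projections of the central pair. Its 8 log2 fold changes ran from -0.23 (Cfap221) to 0.10 (Cfap69), with edgeR adjusted p-values from 0.417 to 0.947. Cfap46 gave 54.0, 49.8 and 50.5 CPM in aged mice, against 53.9, 46.5 and 55.2 CPM in young mice, and its 95% interval was -0.19 to 0.17. Cfap69 gave 28.3, 29.2 and 29.6 CPM in aged mice, against 27.7, 26.7 and 27.1 CPM in young mice; the groups did not overlap, with a log2 fold change of 0.10 (edgeR adjusted p = 0.417).

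Genes for the tether, regulator and base structures around the inner arms and spokes went both ways. Cfap100, part of a complex that modifies inner arm activity, gave 13.8, 10.1 and 12.3 CPM in aged mice, against 9.26, 8.16 and 9.85 CPM in young mice (log2 fold change 0.40 ± 0.14 SE; edgeR adjusted p = 0.10). Its groups did not overlap, though aged replicate 2 and young replicate 3 nearly met. Cfap100 shares exon sequence with Zxdc on the opposite strand, and the strand setting of the counting is not given in the sources used here. In all, 11 of the 64 genes share exons with another tested gene, 10 of them on the opposite strand (Cfap97 and Dnah14 included), so their counts are uncertain to that extent. Cfap57 lay the other way, at 3.03, 2.91 and 2.25 CPM in the aged and 3.40, 3.73 and 4.34 CPM in the young libraries (log2 fold change -0.49 ± 0.18 SE; edgeR adjusted p = 0.133).

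Dynein arms are assembled in the cytoplasm before they enter the cilium, with Cfap298 and Cfap300 among the factors needed. Their log2 fold changes were 0.07 and 0.09, with edgeR adjusted p-values of 0.717 and 0.673. Among the remaining Cfap genes, Cfap410 and Cfap36 had the highest FPKM, 24.0 and 15.8. Cfap410, a basal body protein, gave 48.1, 47.1 and 47.6 CPM in aged mice, against 45.4, 39.1 and 43.2 CPM in young mice, without overlap (log2 fold change 0.16; edgeR adjusted p = 0.196). Cfap97 was lower in each aged library, at 39.2, 42.1 and 39.2 CPM against 43.8, 44.9 and 43.3 CPM in young (log2 fold change -0.13; edgeR adjusted p = 0.245). Cfap20dc had 14.1 ± 1.34 CPM in aged mice, against 11.1 ± 1.49 CPM in young mice (± SD over 3 mice per age; edgeR adjusted p = 0.121).

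Levels per length spanned a wide range within the set. The median FPKM of the 64 genes was 1.80, against 7.22 over all tested genes; 21 were under 1 FPKM and 4 at 10 FPKM or more. Those 4 were Cfap20, Cfap410, Cfap36 and Tekt5. Axonemal dynein heavy chains reached at most 1.65 FPKM (Dnah7b) apart from Dnah1, with medians of 0.459 FPKM for outer and 0.608 FPKM for inner arm genes, whereas the radial spoke genes had a median of 7.06 FPKM.

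**Figure D3:**
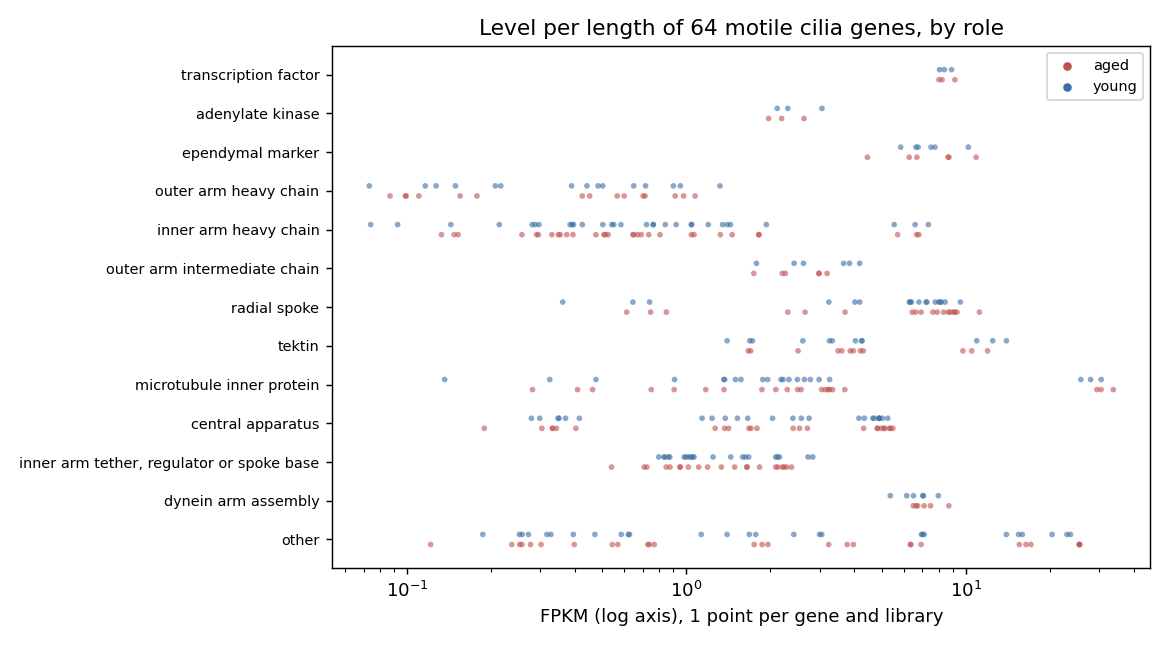
FPKM on a log axis of the 64 genes by role, 1 point per gene and library (red, aged; blue, young). Dynein heavy chains lie mostly to the left, with medians of 0.459 and 0.608 FPKM, while Cfap20, at 29.7 FPKM, lies far to the right of the other proteins inside the doublets.

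The libraries also differed from each other within each age. Young replicate 3 was the highest library for 23 of the 64 genes (35.9%, against 10.6% of all tested genes) and aged replicate 2 for 15 (23.4%, against 18.2%). Aged replicate 3 was the highest for 2 and the lowest for 17 (26.6%, against 16.8%). Young replicates 1 and 2 were also often the lowest, for 17 (26.6%, against 19.3%) and 18 (28.1%, against 18.3%). Relative to each gene's mean over the 6 libraries, the median log2 deviation was 0.12 in young replicate 3, 0.07 in aged replicate 2 and 0.01 in aged replicate 1. The lower libraries were young replicates 1 and 2, at -0.04 and -0.06, and aged replicate 3, at -0.07. Over all tested genes the same medians ran from -0.0032 to 0.0047.

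Motile cilium genes outside the rule also had their highest medians in young replicate 3 and aged replicate 2. Summed over the 45 such genes present, young replicate 3 was highest (487 CPM). Aged replicate 1 (469 CPM) lay above aged replicate 2 (463 CPM) in that sum. Aged replicate 2 was above aged replicate 3 in 52 of the 64 genes (81.2%), in 36 of 44 other motile cilium genes (81.8%) and in 18 of 20 other ependymal markers (90%), against 50.2% of all tested genes. Young replicate 3 was above young replicate 1 in 50 of 64 (78.1%), 35 of 44 (79.5%) and 16 of 20 (80%), against 48.5% of all tested genes. Both aged replicate 2 and young replicate 3 were the 2 highest libraries in fewer genes. These were 10 of 64 (15.6%), 12 of 44 (27.3%) and 4 of 20 (20%), against 6.24% of all tested genes. The lists of 44 and of 20 genes overlap in part, so they are not independent of each other. The median SD within an age group on the log2 scale was 0.196 for the 64 genes and 0.114 for all tested genes, whose median FPKM was also higher, 7.22 against 1.80. How the ventricle lining was divided between dissections is not recorded in the labels, and its part in these values was not tested.

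**Figure D4:**
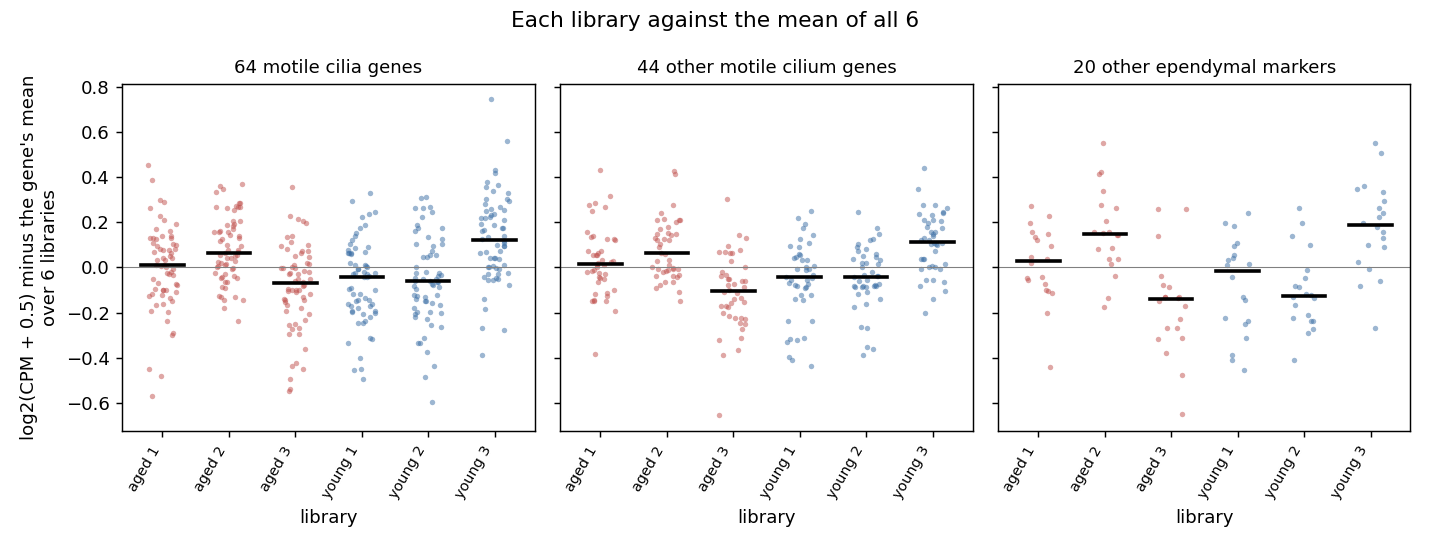
Deviation of each gene from its own mean over the 6 libraries, as log2(CPM + 0.5), for the 64 motile cilia genes, 44 other motile cilium genes and 20 other ependymal markers (points, genes; black bars, medians). In the 3 panels the highest median is in young replicate 3 and the lowest in aged replicate 3.

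The other genes of the cilium gave few calls. Over all tested genes, 6.86% passed in edgeR and 26.2% had an unadjusted p under 0.05. Of 44 tested dynein assembly, docking, nexin link and central pair genes outside the rule, 0 rose or fell in edgeR. Of them, 5 had an unadjusted p under 0.05. They included Hydin, a giant central apparatus protein (log2 fold change -0.40; edgeR adjusted p = 0.127), and Ccdc40, needed for the spacing of inner arms and spokes (log2 fold change -0.27; edgeR adjusted p = 0.140). Zmynd10 and Ccdc151, needed for dynein assembly and docking, had positive log2 fold changes of 0.44 and 0.37 (edgeR adjusted p = 0.145 and 0.165). In the alternative tests up to 2 genes of this list passed. Of 29 intraflagellar transport genes, which carry cargo in motile and primary cilia alike, 0 passed in edgeR and 2 had an unadjusted p under 0.05.

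Of 20 ependymal markers outside the rule, Iqck rose, from 4.10 ± 0.0944 CPM in young mice to 5.91 ± 0.170 CPM in aged mice (± SD over 3 mice per age), a log2 fold change of 0.53 ± 0.13 SE (edgeR adjusted p = 0.0425). The other 19 did not pass, so that 1 of 20 was called where 6.86% of all tested genes were, and 7 of 18 processing alternatives gave no call in the list, among them those without aged replicates 1 and 3 and without each young library. Fam183b stood at 12.8 ± 2.29 CPM in aged mice, against 8.57 ± 1.74 CPM in young mice (± SD over 3 mice per age; edgeR adjusted p = 0.0676), and Sntn at 0.602 ± 0.228 and 1.14 ± 0.287 CPM (edgeR adjusted p = 0.137). The summed level of the list was 96.5, 107 and 83.4 CPM in the aged and 86.5, 82.6 and 106 CPM in the young libraries, again with aged replicate 2 and young replicate 3 highest.

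Markers of neighbouring cell types were read in the same libraries. The summed level of 14 choroid plexus genes was 107, 96.1 and 108 CPM for aged replicates 1 to 3, then 70.7, 89.4 and 127 CPM for young replicates 1 to 3. Most of each sum came from Prlr and Clic6. Prlr alone gave 43.8, 45.6 and 50.8 CPM of the aged sums and 32.5, 43.8 and 52.9 CPM of the young sums. Ttr, of the same list, gave 6.95, 5.76 and 3.87 CPM in the aged replicates, then 1.35, 5.46 and 19.97 CPM in the young replicates. Clic6 gave 35.8, 22.1 and 32.5 CPM in the aged replicates, then 20.04, 18.96 and 27.9 CPM in the young replicates. Young replicate 3 was thus the highest library in the sum, in Prlr and in Ttr, but not in Clic6. Aged replicate 1 was the highest there. Among the 10 tested genes of the list, young replicate 3 was highest for 6 and aged replicate 1 for 2. Aged replicate 2 and young replicate 2 were highest for 1 each. The part of choroid plexus content in the order of the libraries was not tested. Of 10 choroid plexus genes tested, 0 passed in edgeR and up to 2 in the alternative tests. An unadjusted p under 0.05 was found for 3 of the 10, where 26.2% of all tested genes had one. Tanycyte genes mark another type of ventricular cell in the hypothalamus. Among 15 of these genes, 4 rose and 1 fell, where 3.22% of all tested genes rose and 3.64% fell. Over 18 alternatives the list gave 0 to 9 calls, with 0 without aged replicate 3 and 1 each without aged replicate 1, young replicate 1 and young replicate 3. Their sums were 934, 683 and 965 CPM in the aged replicates, then 630, 859 and 639 CPM in the young replicates. Young replicate 3 was among the lowest. Mest alone gave 692, 457 and 710 CPM of the aged sums and 470, 642 and 462 CPM of the young sums. The sums therefore mostly follow Mest. The median log2 deviation of the 15 genes was 0.16, 0.10 and 0.28 in the aged replicates, then -0.43, 0.16 and -0.25 in the young replicates. Of 8 astrocyte genes, 3 fell (2 to 5 calls over the alternatives), beside the 3.64% of all tested genes that fell. The astrocyte sum was 2824, 2009 and 2884 CPM in the aged replicates, against 3267 to 3508 CPM in young mice. Slc1a2 alone gave 818 to 1187 CPM of the aged sums and 1441 to 1712 CPM of the young sums. Of the 8 genes, Gfap alone had a positive log2 fold change, 0.21. Hypothalamic peptide and patterning genes were present in all libraries (8 of 8 tested, 1115 to 1341 CPM in sum), as were 8 of 8 neuronal genes (3844 to 4531 CPM). Of the 8 hypothalamic genes, Avp rose and Hcrt fell (edgeR adjusted p = 0.00248 and 0.0161), where 6.86% of all tested genes passed. The alternatives gave 1 to 5 calls in that list. Of the 8 neuronal genes, 0 passed in edgeR and 0 to 3 in the alternatives.

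The regulators of multiciliation were measured beside Foxj1. Of 17 tested genes of this programme, 0 passed in edgeR, against 6.86% of all tested genes. Rfx3 alone had an unadjusted p under 0.05, against 26.2% of all tested genes. Rfx3, which binds X-box elements of cilium genes, stood at 31.9 ± 1.19 CPM in aged mice, against 38.0 ± 5.65 CPM in young mice (± SD over 3 mice per age; log2 fold change -0.25 ± 0.11 SE; edgeR adjusted p = 0.166). Rfx2 and Trp73, which also act in this programme, had log2 fold changes of -0.15 and 0.46 (edgeR adjusted p = 0.451 and 0.212).

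RFX factors recognise the X-box, an inverted pair of half-sites spelled GTTGCC on one strand and GGCAAC on the other. Promoter windows of 300 bases (250 before and 50 after the start) were found in RefSeq's table (build GRCm38.p6) for 53 of the 64 genes, 60 windows in all. GTTGCC on either strand was present in 23 of the 60 windows (38.3%), against 12.9% of the windows of all tested genes and 12.5% of all 32851 windows. GTTGCCA was in 12 (20%, against 4.06% and 4.38%) and the looser GTTNCC, with N for any base, in 41 (68.3%, against 46.3% and 45.3%). A spaced pair, GTTNCC followed after 3 bases of any kind by GNAAC, was in 6 windows (10%, against 0.963% and 0.804%). Its stricter form, GTTNCC followed after 2 bases by GGNAAC, was in 2 (3.33%, against 0.535% and 0.451%), and GTTGCC followed by AT and GGNAAC in 0 (against 0.0535% and 0.07%). CCAT followed directly by GGCAAC was in 3 (5%, against 0.602% and 0.563%). The forkhead spelling GTAAACA was in 4 (6.67%, against 2.47% and 3.65%). All 8 spellings were read on both strands, and all but GTAAACA can overlap one another. These are matches of letters and not measured binding.

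The stretches below show how the half-sites lie before the start in genes described above, 5′ to 3′ on the gene's strand, with half-sites and spaced pairs in capitals and upstream bases only. Cfap161 (minus strand, chr7:83794853-83794925) is shown for its 3 half-sites, and Tekt1 (minus strand, chr11:72361883-72361937) for 2 half-sites on opposite strands, in the order GGCAAC then GTTGCC. Cfap20dc (minus strand, chr14:8666359-8666412) and Cfap45 (plus strand, chr1:172521091-172521129) carry the spaced pair. Ccdc153 (plus strand, chr9:44240505-44240550) and Dnaic2 (plus strand, chr11:114727373-114727418) carry 1 half-site each. Positions are GRCm38.p6.
Cfap161: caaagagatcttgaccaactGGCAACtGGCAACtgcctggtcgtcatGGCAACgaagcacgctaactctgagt
Tekt1: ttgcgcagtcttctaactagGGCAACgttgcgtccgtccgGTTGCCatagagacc
Cfap20dc: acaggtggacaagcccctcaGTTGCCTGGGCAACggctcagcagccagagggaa
Cfap45: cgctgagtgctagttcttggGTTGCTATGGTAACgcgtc
Ccdc153: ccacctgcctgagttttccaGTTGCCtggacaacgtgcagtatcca
Dnaic2: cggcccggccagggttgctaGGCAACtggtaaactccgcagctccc
Of the 21 genes with GTTGCC in a window, 14 had a positive and 7 a negative log2 fold change of aged over young, with a median of 0.07. Of the 32 matched genes without it, 15 were positive and 17 negative, with a median of -0.05, and none of these genes passed in edgeR. Among the genes printed, the log2 fold change was 0.59 for Cfap161, 0.34 for Cfap20dc, 0.01 for Cfap45, 0.00 for Tekt1, -0.14 for Ccdc153 and -0.17 for Dnaic2.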

How the data were processed

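Per the labels' protocols, total RNA of hypothalamus from 6 mice was extracted with the mirVana kit and made into TruSeq Stranded mRNA libraries. The submitters' processing notes name GRCm39 and the tools Trimmomatic, HISAT2, Cufflinks, HTSeq and DESeq, while for versions, annotation and strand setting the entry is: not given in the sources used here. The deposited counts are whole reads per gene, not normalized by the authors. The deposited FPKM of all 18228 genes follow from count, gene length and library total (tolerance 1e-06).

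Counts were fitted with edgeR 4.0.16 (R 4.3.3, quasi-likelihood, TMM, no covariate), aged against young, on genes kept by filterByExpr (minimum count 10, total 15), 14702 genes with 99.9% of counts. Calls used a Benjamini-Hochberg adjusted p under 0.05 over all genes tested. SE was derived from the F statistic. The fit was tested on simulated data. Libraries of 1 age differed by more than counting error alone, with chi-square values of 4 to 12.1 for each degree of freedom over pairs.

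The members and lists were chosen with earlier results of these data known. Named were the 4 singly listed genes, the 15 with the highest FPKM, the 5 largest changes each way, the leading gene of each family, and up to 4 genes per list. Genes named beyond this rule (among them Dnah5, Dnah7a, Dnah7b, Dnah7c, Dnah9, Dnah11, Dnaic2, Tekt1, Tekt2, Cfap45, Cfap46, Cfap69, Cfap126 and Rfx2) were chosen after their values were seen. Promoter sequences are RefSeq's (GRCm38.p6); motif spellings were chosen after the values were seen. Overlapping exons were read by symbol from GENCODE M21 for 61 of the 64 genes. Alternatives were other scalings, filters, DESeq2 1.42.0, limma 3.58.1 (voom, and trend on log2 FPKM), the replicate number as a block and a length correction. Further alternatives left out Y-linked genes and Xist, or each library in turn. Leaving out sex-linked genes does not separate age from sex in the genes kept.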

Additional observations from a re-analysis of the deposited data

How the results depend on the processing

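Of 18 alternatives, 12 called none of the 64 genes, as in the reported test. Scaling by library totals alone called 1 (Cfap161 higher), as did limma-trend on log2(FPKM + 1) and on log2(FPKM + 0.1) with 1 each; DESeq2 called 1 (Dnah6 lower), and limma-voom with sample weights called 5 (Cfap100 and Cfap161 higher, Dnah6, Dnaic1 and Rsph4a lower), while plain limma-voom called 0. Leaving out single libraries gave 0 to 2 calls, the 2 being Cfap100 and Rsph4a without aged replicate 2; the cause of these changes was not tested. The median log2 fold change ran from -0.04 to 0.11 over 20 alternatives. The difference in summed level was 4.93% as FPKM, 2.27% by library totals and -1.96% to 3.68% without single libraries. As FPKM, the mean sum of the 64 genes was 248 in aged and 237 in young libraries. The sum over all tested genes was higher in aged libraries too, at 314910 against 301130. Young replicate 3 was highest for 22 genes by library totals and 22 by FPKM, the latter added after the data were seen.

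The replicate number as a block called 0 of the 64 genes, and its median log2 fold change was 0.02. The labels do not say that the numbers pair the mice. Same-numbered libraries had correlations of deviations of 0.0952, 0.0389 and -0.152, and differently numbered ones ran from -0.122 to 0.0931. With 3 libraries per age, these correlations cannot decide whether the mice were paired. The block also called none of the ependymal markers outside the rule.

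Of 27 named genes under these settings (486 values), 456 kept direction and side of the threshold, 11 passed and 19 changed sign. The log2 fold change of Foxj1 became 0.0031, 0.0020 and 0.0021 with library totals, log2(FPKM + 1) and log2(FPKM + 0.1). The log2 fold change of Tmem212 became -0.099 with sample weights. With the gene length trend removed, the log2 fold change was -0.038 for Tmem212, 0.060 for Dnah1 and -0.076 for Rsph3b. Without single libraries, the log2 fold change ran from -0.083 to 0.019 for Foxj1, -0.048 to 0.356 for Tmem212, -0.401 to 0.068 for Ccdc153, -0.270 to 0.0059 for Ak7, -0.141 to 0.045 for Dnah1, -0.013 to 0.170 for Cfap298 and -0.0064 to 0.054 for Rsph3b. Depth limits the genes with few counts: Cfap53, Cfap58, Cfap77, Cfap157 and Dnah14 could differ by more than 2-fold within their intervals.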

Other observations

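Primary cilia, the single non-motile cilia of neurons and glia, were followed through 32 genes. Of these, 0 rose and 3 fell in aged hypothalamus, where 6.86% of all tested genes passed and 3.64% fell. The 3 were Gli1, Smo and Gli2, which act in Hedgehog signalling. Ptch1 and Gli3, of the same pathway and named after their values were seen, had log2 fold changes of -0.40 and -0.45 and did not pass (edgeR adjusted p = 0.0832 and 0.219). Bbs5, Bbs4, Bbip1 and Bbs2 are parts of the BBSome, which carries membrane proteins in cilia. They had positive log2 fold changes of 0.32, 0.16, 0.20 and 0.20 and did not pass either (edgeR adjusted p from 0.0527 to 0.149). Of the other Bbs genes listed, Bbs7 and Bbs9 had log2 fold changes of 0.18 and 0.12, and Bbs1 had -0.07. None of these passed. All but Bbs5 were named after their values were seen. Smo, the signal transducer, went from 35.9 ± 0.479 CPM in young mice to 27.5 ± 2.84 CPM in aged mice (± SD over 3 mice per age), a log2 fold change of -0.39 ± 0.09 SE (edgeR adjusted p = 0.0311). Gli1 and Gli2, transcription factors of the pathway, had log2 fold changes of -0.54 ± 0.12 SE and -0.83 ± 0.21 SE (edgeR adjusted p = 0.0296 and 0.0490). Over the 32 genes the median was 0.03 on the log2 scale, and calls in the list ran from 0 to 6 over 18 alternatives. There were 0 without aged replicate 1, aged replicate 3, young replicate 1 or young replicate 3, and 1 without young replicate 2. Of 8 astrocyte genes, 3 also fell, and the part of astrocyte content in these values was not tested.

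Cytoplasmic dynein and dynactin genes, the relatives of the axonemal dyneins that move cargo inside cells, gave 0 calls of 15 in edgeR. Over the alternatives they gave 0 to 3 calls. An unadjusted p under 0.05 was found for 3, where 26.2% of all tested genes had one. The median log2 fold change of the 15 genes was 0.12.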
